A study of Mus musculus with 6 samples.

Results

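The nuclear genes of oxidative phosphorylation were followed across 6 mRNA sequencing libraries of mouse brain tissue. They were chosen by gene symbol: names beginning with Ndufa, Ndufb, Ndufc, Ndufs or Ndufv, the names Sdha to Sdhd, and names beginning with Uqcr, Cox4 to Cox8 or Atp5. Assembly factors named Ndufaf (8 rows), rows with "-ps" in the name (7 rows) and rows with a mean under 10 counts over the 6 libraries (2 rows) were left out. This gave 83 genes of the 51826 in the deposited table, all 83 of them protein-coding, and all 83 passed the filter on low counts. By name, 38 belong to complex I, 4 to complex II, 8 to complex III, 16 to complex IV and 17 to complex V. Cox8c, with 0 counts in every library, and Cox8b, with a mean of 4.0 counts, fell below the minimum, while Cox7b2 (12 counts) and Cox7a1 (25 counts) stood just above it.

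The study asked how loss of ADAM17, a protease of the cell membrane that releases signalling proteins from the cell surface, alters transcripts in the paraventricular nucleus of the hypothalamus. The knockout group (KO) has ADAM17 deleted in glutamatergic neurons and the control group is wild type (WT). Each genotype has 3 libraries, replicates 1 and 2 from males and replicate F1 from a female. The sources used here do not give the mouse strain, the Cre driver, the ages, any treatment or whether animals were pooled.

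Oxidative phosphorylation is carried out by 5 protein complexes of the inner mitochondrial membrane. Complexes I to IV pass electrons from NADH and succinate to oxygen, and I, III and IV pump protons that complex V, the ATP synthase, uses to make ATP. Most subunits are encoded in the nucleus and imported, while a small core is encoded by mitochondrial DNA. Neurons depend heavily on this pathway to fuel ion pumps and synaptic transmission.

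Libraries held 35114426 to 45355375 counts in KO and 40652708 to 54421330 in WT, and a floor of 3 counts corresponds to 0.055 to 0.085 CPM, counts scaled to the library total, covering counting error only. KO replicate 1 stood apart: mitochondrially encoded genes took 20.63% of its counts, against 9.2% and 7.8% in KO replicates 2 and F1 and 7.22% to 7.64% in WT. Group medians and most differences of single genes are therefore also given without this library. The KO libraries of replicates 1, 2 and F1 had 15.4, 14.6 and 13.9 CPM of Adam17 itself, against 17.1, 17.2 and 15.6 CPM in the WT libraries. Its log2 fold change was −0.19 (SE 0.11), short of the threshold (edgeR adjusted p = 0.747). The 6 markers of the paraventricular nucleus were low throughout: they summed to 36.6 to 53.0 CPM in KO and 29.8 to 106.7 CPM in WT, and 5 of 6 were below 0 by log2 fold change. Avp, the vasopressin gene, stood at 5.2, 8.3 and 13.8 CPM in KO and 27.7, 6.0 and 38.2 CPM in WT, while the 6 markers of cortical and hippocampal excitatory neurons summed to between 1115 and 1447 CPM in KO and 884 to 1187 CPM in WT, with 6 of 6 above 0 by log2 fold change. The 4 general neuronal markers summed to 7756, 6132 and 5712 CPM in the KO libraries (replicates 1, 2 and F1) and to 5430, 5733 and 4628 CPM in WT replicates 1, 2 and F1, with 4 of 4 above 0. None of the genes on these marker lists passed the test. Among other marker lists, those of striatum, thalamus, astrocytes, oligodendrocytes, microglia, endothelium and choroid plexus had median log2 fold changes from −0.07 to 0.42. Without KO replicate 1 they ran from −0.79 for thalamus (0.22 with it) to 0.70 for striatum (0.42 with it), and the paraventricular median was −1.04 (−0.51 with it). The part of these marker levels in the results that follow was not tested. In bulk tissue, fewer cells of a type and less RNA per cell cannot be told apart.

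No nuclear oxidative phosphorylation gene passed the test between the genotypes. Of the 83 genes 0 had an adjusted p under 0.05 (edgeR quasi-likelihood test with sex as a term, Benjamini-Hochberg adjustment over all genes tested), and the smallest adjusted p among them was 0.735. Over all 18956 genes tested 1 passed (0.00528%), a gene outside this group. At an unadjusted p under 0.05 the group held 2 genes with lower values in KO, Uqcrh and Cox7b (2.41% of the 83, against 2.53% of all genes), and 1 gene with a higher value, Cox6a2 (3.85% of all genes were higher at that p). DESeq2 also called 0 of the 83, against 0.118% of genes called lower and 0.285% called higher over all genes. Per-gene differences in this group were thus not separable from the spread between libraries at 3 libraries a genotype.

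The point estimates nonetheless lay mostly on one side. Of the 83 genes, 66 (79.5%) had a log2 fold change, KO minus WT, below 0, against 50.6% of all genes tested. Their median was −0.15, against −0.00 over all genes, and they ran from −0.63 for Atp5k to 0.77 for Cox6a2. In 24 genes (28.9%) all KO libraries lay below all WT libraries, against 7.32% of all genes, and in 3 genes, Ndufb10, Cox6a2 and Atp5f1, all KO libraries lay above all WT libraries, against 6.60% of all genes. Most of the size of this shift came with 1 library. Relative to the mean of WT, the median gene of the group stood at −0.36 on the log2 scale in KO replicate 1, at −0.06 and −0.03 in KO replicates 2 and F1, and at −0.01, −0.01 and 0.02 in WT replicates 1, 2 and F1. KO replicate 1 was the lowest of the 6 libraries in 66 of the 83 genes, or 79.5%, against 29.6% of all genes. It was the highest in 8, against 28.3% of all genes.

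Without KO replicate 1 the median log2 fold change of the 83 genes was −0.06, against 0.00 over all genes. There were still 59 genes (71.1%) below 0, against 49.8% of all genes. The KO libraries left lay wholly below WT in 27 genes (32.5%), against 12.1% of all genes, and wholly above WT in 6, against 11.3%. In that fit 0 of the 83 passed (0.0358% of all genes did). A total of 10 of the 83 had an unadjusted p under 0.05, against 1656 of 19528 genes in that fit (8.48%). They went both ways and are named as a description. Of these 10, Ndufa2, Ndufb3, Uqcrh, Cox7b, Atp5k and Atp5l were lower in KO, and Ndufb10, Cox6a1, Cox6a2 and Atp5d were higher. WT replicate F1 was the highest of the 6 libraries in 31 of the 83 genes, against 3789 of all 18956 genes. Without both KO replicate 1 and WT replicate F1, in a fit without sex, 48 of the 83 lay below 0. Their median in that fit was −0.03, against 0.00 over all genes. The high mitochondrial share of KO replicate 1 moved with the low values in that library. Leaving the mitochondrially encoded genes out of the counts altogether gave a median of −0.15 for the group. The fit with them is already TMM scaled (factor 0.82 for KO replicate 1), which limits the weight of such genes. This step could therefore hardly move the median and does not bear on that library's composition. The part of that library's RNA composition in its low values was not tested.

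**Figure D1:**
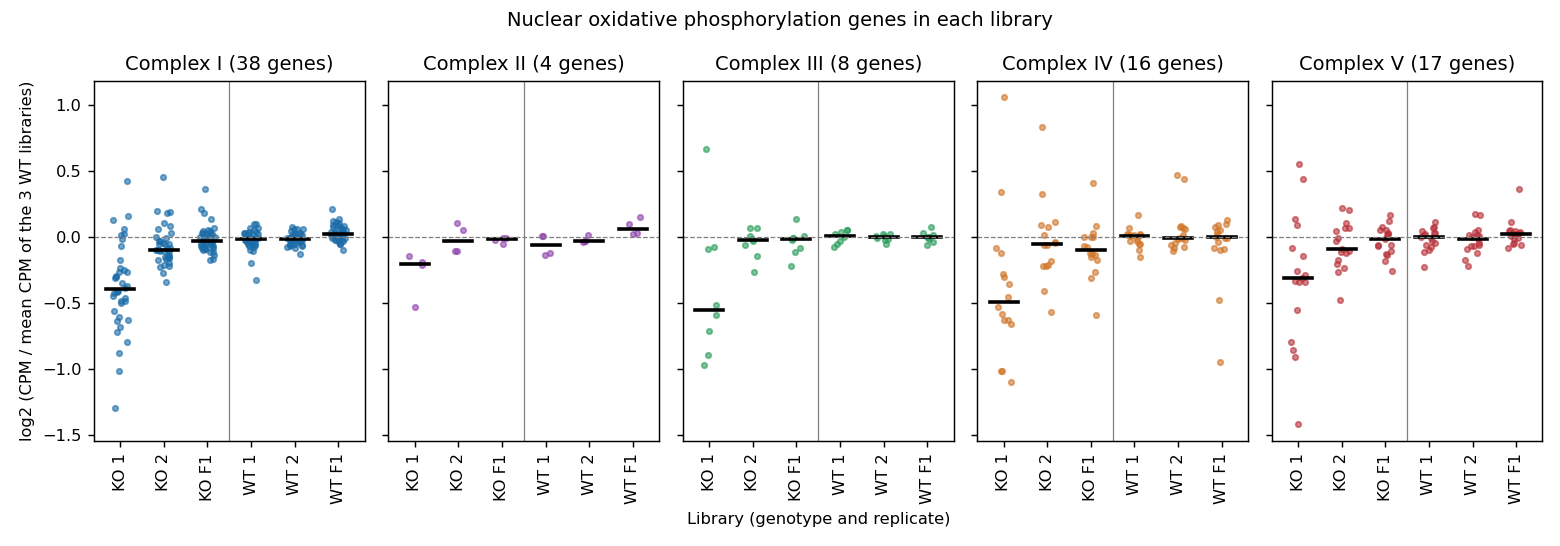
Level of each nuclear oxidative phosphorylation gene in each library, as log2 of its CPM over the mean CPM of the 3 WT libraries, in a panel for each complex (KO left of WT). Points are genes and black bars are medians: in KO replicate 1 the medians lie between −0.20 (complex II) and −0.56 (complex III), while in the other libraries they lie near 0.

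Complex I, NADH dehydrogenase, takes electrons from NADH and hands them to ubiquinone. Its 38 genes by name had a median log2 fold change of −0.15, with 31 below 0, and −0.07 without KO replicate 1. A total of 36 of them are subunits of the complex. Ndufa4 is now counted as a subunit of complex IV, and Ndufa4l2 is its hypoxia-inducible relative. The summed level of the 38 genes was 1831, 2222 and 2262 CPM in the KO libraries (replicates 1, 2 and F1) and 2245, 2249 and 2331 CPM in WT replicates 1, 2 and F1. KO replicate 1 was low, KO replicate 2 lay just under the lowest WT library, and KO replicate F1 lay inside the WT range.

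The 8 genes of the NADH-binding module, where electrons enter, had a median of −0.12, with 6 below 0 (−0.08 without KO replicate 1). Ndufv1, the flavoprotein that binds NADH, stood at 39.3, 55.8 and 54.4 CPM in KO and 58.8, 57.4 and 57.7 CPM in WT, a log2 fold change of −0.22 (SE 0.15, edgeR adjusted p = 0.772; −0.07 without KO replicate 1). Ndufs1, the largest iron-sulfur subunit, stood at 90.9, 93.4 and 112 CPM in KO and 108, 110 and 109 CPM in WT (log2 fold change −0.15, SE 0.10). For Ndufv1 all KO libraries lay below WT, with KO replicate 1 far below the other KO libraries, while for Ndufs1 the genotypes overlapped. Ndufa2, an accessory subunit of this module on chromosome 18, stood at 13.3, 25.8 and 29.1 CPM in KO and 33.6, 32.4 and 32.1 CPM in WT. Its log2 fold change of −0.55 (SE 0.26, edgeR adjusted p = 0.735) was −0.26 without KO replicate 1. Ndufa2 overlaps Tmco6 on the opposite strand, and since the strand setting of the counting is not given, reads of the pair may not be told apart.

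The 8 genes of the quinone-binding module, which passes electrons to ubiquinone, were all below 0 by point estimate, with a median of −0.13. That figure was −0.02 without KO replicate 1. Ndufa7, an accessory subunit, stood at 21.8, 32.3 and 33.1 CPM in KO and 37.2, 34.1 and 36.3 CPM in WT (log2 fold change −0.31, SE 0.17, edgeR adjusted p = 0.744; −0.14 without KO replicate 1). All KO libraries of Ndufa7 lay below WT, and KO replicate 1 was the lowest.

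The nuclear genes of the membrane arm, which surrounds the proton-pumping core encoded in mitochondrial DNA, number 20 here, of which 16 lay below 0 and the median was −0.19 (−0.08 without KO replicate 1). Ndufa1 (ENSMUSG00000016427, chromosome X, 37187588 to 37191163, minus strand), a small subunit needed for assembly of the complex, stood at 17.4, 23.1 and 24.8 CPM in KO and 29.9, 27.9 and 26.1 CPM in WT. Its mean was 21.8 ± 3.88 CPM in KO and 28.0 ± 1.90 CPM in WT (SD, n = 3 each), and its log2 fold change was −0.36 (SE 0.16, edgeR adjusted p = 0.735). Without KO replicate 1 the difference was −0.21 (SE 0.10). Ndufb3, another small accessory subunit of the arm, stood at 25.3, 38.3 and 39.8 CPM in KO and 42.9, 43.2 and 45.5 CPM in WT (log2 fold change −0.35, SE 0.17, and −0.18 without KO replicate 1). In both genes all KO libraries lay below WT and KO replicate 1 was the lowest. Ndufb10 (ENSMUSG00000040048, chromosome 17, 24722060 to 24724478, minus strand), also an accessory subunit of the membrane arm, went the other way: it stood at 134, 114 and 104 CPM in KO and 102, 101 and 96.0 CPM in WT. All its KO libraries lay above WT, by a log2 fold change of 0.23 (SE 0.10, edgeR adjusted p = 0.735) that was 0.15 (SE 0.06) without KO replicate 1 and −0.12 with limma-trend on log2(TPM + 1), where the median of all genes was −0.24.

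Complex II, succinate dehydrogenase, is shared with the citric acid cycle and is the one complex with no subunit encoded in mitochondrial DNA. Its 4 genes had a median log2 fold change of −0.07, and −0.03 without KO replicate 1. Sdha, the flavoprotein that oxidises succinate, stood at 382, 405 and 429 CPM in KO and 402, 441 and 467 CPM in WT (log2 fold change −0.11, SE 0.09). Sdhb, the iron-sulfur subunit, stood at 72.4, 90.4 and 83.7 CPM in KO and 76.5, 82.3 and 93.1 CPM in WT (log2 fold change −0.03, SE 0.12). In both genes the genotypes overlapped. Sdhc, a membrane anchor, stood at 59.6, 68.4 and 65.8 CPM in KO and 66.2, 64.7 and 67.2 CPM in WT (log2 fold change −0.03, SE 0.10). Sdhd, the other anchor, stood at 45.4, 60.8 and 63.2 CPM in KO and 65.7, 63.9 and 66.9 CPM in WT (log2 fold change −0.22, SE 0.14, edgeR adjusted p = 0.756; −0.09 without KO replicate 1). Sdhd alone of the 4 had all KO libraries below WT, against 7.32% of all genes. The estimates of Sdhb and Sdhc changed sign, to 0.04 and 0.03, without KO replicate 1.

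Complex III, the cytochrome bc1 complex, carries electrons from ubiquinol to cytochrome c. Its 8 genes had a median log2 fold change of −0.20, with 6 below 0, and −0.02 without KO replicate 1. Uqcrh (ENSMUSG00000063882, chromosome 4, 116066965 to 116075071, minus strand), the acidic hinge protein that helps cytochrome c bind, stood at 57.6, 78.5 and 81.1 CPM in KO and 98.1, 91.1 and 94.8 CPM in WT. All KO libraries lay below WT, KO replicates 2 and F1 close together and KO replicate 1 lowest. Its mean was 72.4 ± 12.9 CPM in KO and 94.6 ± 3.50 CPM in WT (SD, n = 3 each), with a log2 fold change of −0.39 (SE 0.14, edgeR adjusted p = 0.735). Without KO replicate 1 the difference was −0.25 (SE 0.07, edgeR adjusted p = 0.556).

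Other small subunits of complex III had low values in KO replicate 1 above all. Uqcrq, which binds near cytochrome b, stood at 39.4, 69.9 and 75.7 CPM in KO and 79.2, 76.0 and 76.2 CPM in WT (log2 fold change −0.34, SE 0.22, and −0.09 without KO replicate 1). Uqcr10 stood at 42.5, 61.4 and 59.3 CPM in KO and 63.9, 63.5 and 64.7 CPM in WT (log2 fold change −0.24, SE 0.15, and −0.08 without KO replicate 1). In both, all KO libraries lay below WT, with KO replicates 2 and F1 much nearer to WT than KO replicate 1. Among the larger subunits, Uqcrfs1, the Rieske iron-sulfur protein, stood at 62.4, 87.7 and 88.7 CPM in KO and 86.1, 91.1 and 91.1 CPM in WT (log2 fold change −0.17, SE 0.15, and −0.02 without KO replicate 1). Uqcrc1, a core protein, stood at 192, 212 and 222 CPM in KO and 199, 206 and 203 CPM in WT (log2 fold change 0.04, SE 0.09, and 0.10 without KO replicate 1). Both overlapped between the genotypes. Uqcrb was the exception in KO replicate 1, with 73.4, 46.3 and 43.4 CPM in KO and 46.9, 46.5 and 45.0 CPM in WT, where that library was the highest of all (log2 fold change 0.22, SE 0.19, and −0.03 without KO replicate 1). Uqcrb overlaps the gene model Gm10767 on the opposite strand, so its count is less certain. Its 3 near-identical pseudogenes held counts equal to 0.43% of its own.

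Complex IV, cytochrome c oxidase, passes electrons to oxygen around a catalytic core encoded in mitochondrial DNA, and its nuclear subunits support and tune that core. The 16 genes by name had a median of −0.18, with 14 below 0, and −0.06 without KO replicate 1. Cox4i1, the main regulatory subunit, stood at 185, 270 and 277 CPM in KO and 280, 275 and 278 CPM in WT (log2 fold change −0.19, SE 0.15). Only KO replicate 1 stood outside the WT range by more than a few CPM, and without it the difference was −0.02 (SE 0.05). Cox5a, which sits beside Cox4i1 in the enzyme, stood at 49.3, 96.1 and 89.9 CPM in KO and 96.4, 98.4 and 105 CPM in WT (log2 fold change −0.36, SE 0.23, and −0.11 without KO replicate 1). KO replicate 1 was again far below the rest.

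Cox7b (ENSMUSG00000031231, chromosome X, 106015700 to 106022450, plus strand), a small transmembrane subunit, stood at 54.0, 73.4 and 77.5 CPM in KO and 82.4, 82.7 and 91.1 CPM in WT. Its mean was 68.3 ± 12.5 CPM in KO and 85.4 ± 4.90 CPM in WT (SD, n = 3 each), with a log2 fold change of −0.33 (SE 0.13, edgeR adjusted p = 0.735), and −0.19 (SE 0.06) without KO replicate 1. All KO libraries lay below WT. Cox7a2, the ubiquitous form of another small subunit, stood at 34.5, 43.0 and 50 CPM in KO and 49.4, 47.3 and 53.4 CPM in WT (log2 fold change −0.24, SE 0.12, and −0.14 without KO replicate 1), with overlap in the female KO library. Cox6b2, known as the testis form of a subunit on the outer face, stood at 0.76, 1.23 and 1.45 CPM in KO and 1.52, 1.72 and 1.66 CPM in WT (log2 fold change −0.52, SE 0.28, edgeR adjusted p = 0.745; −0.31 without KO replicate 1). Its KO libraries all lay below WT, at counts of 22, 55 and 59 in KO and 69, 73 and 98 in WT.

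The highest fold change of the group was that of Cox6a2 (ENSMUSG00000030785, chromosome 7, 128205435 to 128206387, minus strand), known as the heart and skeletal muscle form of subunit VIa and also found in some interneurons. It stood at 7.19, 6.17 and 4.58 CPM in KO and 3.62, 3.49 and 3.24 CPM in WT, and every KO library lay above every WT library. The mean was 5.98 ± 1.31 CPM in KO and 3.45 ± 0.19 CPM in WT (SD, n = 3 each), with a log2 fold change of 0.77 (SE 0.17), an unadjusted p of 0.0035 and an edgeR adjusted p of 0.735. Without KO replicate 1 it was 0.67 (SE 0.16, edgeR adjusted p = 0.536). With all libraries the DESeq2 Wald test gave Cox6a2 an adjusted p of 0.069, above the threshold. Cox6a2 is a minor transcript here. By TPM, a level per length, it made up 2.62%, 1.66% and 1.47% of the sum of Cox6a1 and Cox6a2 in KO replicates 1, 2 and F1, and 1.22%, 1.11% and 1.18% in WT replicates 1, 2 and F1.

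**Figure D2:**
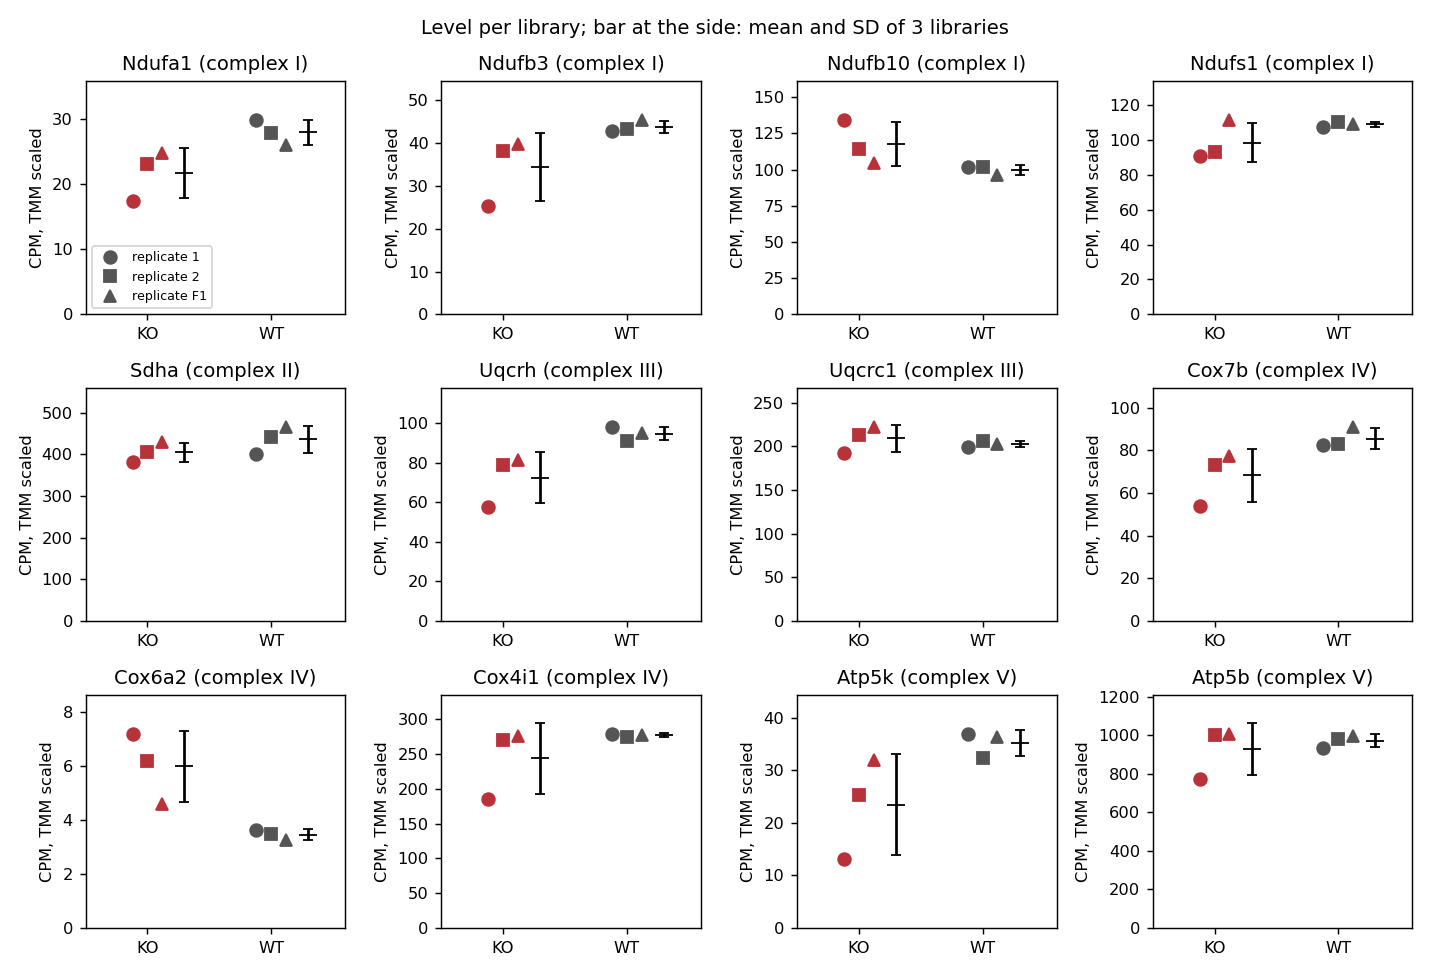
CPM of 12 genes in each library (KO left, WT right; symbols mark replicates), with the mean and SD of the 3 libraries beside them and axes that start at 0. KO replicate 1 is the lowest point in most panels, while in Cox6a2 and Ndufb10 all KO points lie above WT.

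Complex V, ATP synthase, turns proton flow into ATP. Its 17 genes by name had a median of −0.12, with 11 below 0, and −0.03 without KO replicate 1. The 5 genes of the F1 head, the catalytic part, had a median of −0.07, with 3 below 0, and 0.05 without KO replicate 1, with 2 below 0. Atp5b, the catalytic beta subunit, stood at 771, 1001 and 1008 CPM in KO and 933, 982 and 998 CPM in WT (log2 fold change −0.07, SE 0.12, and 0.05 without KO replicate 1). Atp5a1, the alpha subunit, stood at 643, 734 and 693 CPM in KO and 646, 706 and 694 CPM in WT (log2 fold change 0.02, SE 0.10, and 0.07 without KO replicate 1). Neither separated the genotypes. Atp5e, the small epsilon subunit of the central stalk, stood at 13.6, 20.5 and 23.6 CPM in KO and 26.1, 23.2 and 24.9 CPM in WT (log2 fold change −0.38, SE 0.19, and −0.18 without KO replicate 1), with the female KO library inside the WT range.

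The c ring, the rotor, is encoded by 3 genes for 1 mature protein, and Atp5g1, Atp5g2 and Atp5g3 had log2 fold changes of −0.12, −0.24 and −0.23. These were −0.03, −0.02 and −0.09 without KO replicate 1. The 7 genes of the peripheral stalk and membrane part had a median of −0.20, with 5 below 0, and −0.12 without KO replicate 1. In 4 of the 7, Atp5k, Atp5j2, Atp5h and Atp5l, all KO libraries lay below WT, against 7.32% of all genes. Parts this small were described and not tested.

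Atp5k (ENSMUSG00000050856, chromosome 5, 108433244 to 108434448, minus strand), the e subunit that helps synthase dimers form, had the lowest fold change of the 83. It stood at 13.2, 25.3 and 32.1 CPM in KO and 37.0, 32.5 and 36.4 CPM in WT. The mean was 23.5 ± 9.57 CPM in KO and 35.3 ± 2.48 CPM in WT (SD, n = 3 each), and the log2 fold change was −0.63 (SE 0.27, edgeR adjusted p = 0.735). It was −0.34 (SE 0.11) without KO replicate 1, and KO replicate F1 lay just under the lowest WT library. Atp5l, the g subunit, which neighbours Atp5k in the enzyme, stood at 45.0, 75.1 and 74.6 CPM in KO and 87.0, 85.1 and 81.5 CPM in WT (log2 fold change −0.39, SE 0.20, and −0.17 without KO replicate 1). It has 8 near-identical pseudogenes. Atp5j2, the f subunit, stood at 52.5, 55.7 and 53.5 CPM in KO and 59.1, 71.8 and 61.3 CPM in WT (log2 fold change −0.25, SE 0.11). Unlike most of the group, its KO libraries were close together and KO replicate 1 did not stand out. Atp5h, the d subunit of the peripheral stalk, stood at 93.2, 108 and 108 CPM in KO and 119, 118 and 117 CPM in WT (log2 fold change −0.20, SE 0.10, and −0.12 without KO replicate 1), all KO libraries below WT.

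Not every name in the group marks a subunit. Atp5s and Atp5sl are related by name and are not subunits of the synthase, Cox7a2l is a factor that joins complexes into supercomplexes, and Ndufa4l2 replaces Ndufa4 in low oxygen. These 4 had a median of 0.16, with 1 below 0, and a median of 0.09 without KO replicate 1.

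**Figure D3:**
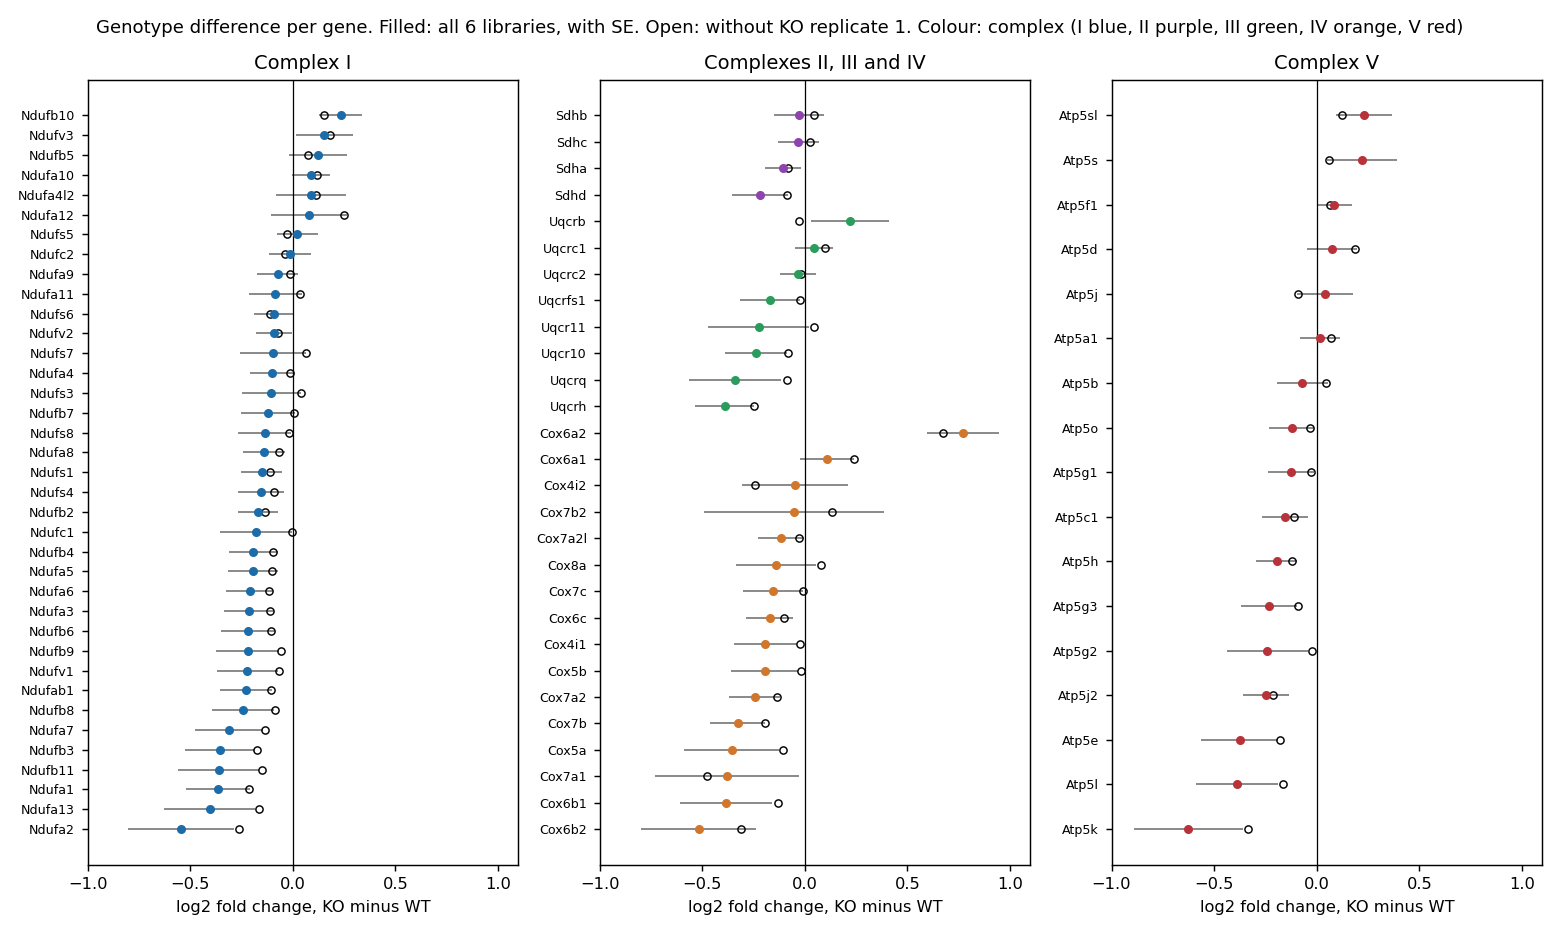
Log2 fold change, KO minus WT, of 82 of the 83 genes, with complexes in separate panels and colours. Filled points with SE bars use all 6 libraries and open points leave out KO replicate 1: most filled points lie left of 0, around a median of −0.15, and most open points lie nearer to 0, around −0.06.

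Gene length ran along the differences. The 83 genes are short, with a median coding length of 423 bases (156 to 2181) against 1398 bases over 15454 tested genes with a coding length. In the 21 genes under 300 bases the median log2 fold change was −0.24, in the 40 genes from 300 to under 600 bases −0.19, in the 13 genes from 600 to under 1200 bases −0.09 and in the 9 genes of 1200 bases and over −0.07. Other tested genes had −0.08, −0.05, 0.00 and 0.01 in the same bins, so with all libraries the group lay lower than other genes in each bin. KO replicate 1 carried much of this order. Relative to the WT mean it stood at −0.63, −0.40, −0.23 and −0.19 in the 4 bins of the group, and at −0.20, −0.13, −0.03 and 0.02 in other genes. Without that library the medians of the group were −0.10, −0.09, 0.04 and −0.02, and those of other genes −0.04, −0.01, 0.02 and 0.01. Without it the group lay above other genes from 600 to under 1200 bases, a thin bin of 13. Across the 83 genes Spearman's rho between coding length and log2 fold change was 0.453, and 0.361 without KO replicate 1. Over the 15454 tested genes with a coding length it was 0.061, and −0.016 without KO replicate 1. The genes share their libraries and the correlations are given as a description. The part of gene length in the group's low values was not tested.

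**Figure D4:**
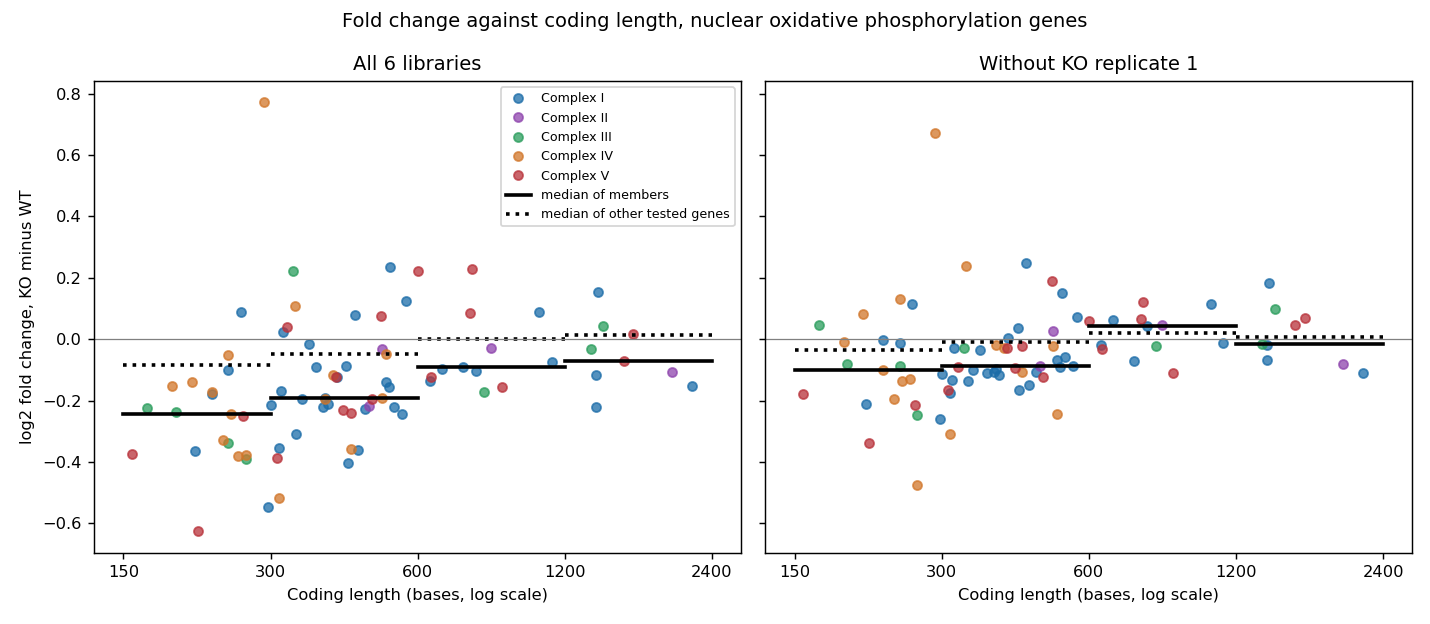
Log2 fold change, KO minus WT, against coding length in bases (log scale) for the 83 genes, coloured by complex, with all 6 libraries (left) and without KO replicate 1 (right). Solid bars are medians of the group and dotted bars medians of other tested genes in 4 length bins: under 300 bases they are −0.24 and −0.08 with all libraries and −0.10 and −0.04 without KO replicate 1.

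Transcripts of the same complexes that are encoded in mitochondrial DNA stood the other way. The 83 nuclear genes summed to 6643, 8238 and 8218 CPM in the KO libraries (replicates 1, 2 and F1) and to 8118, 8235 and 8414 CPM in WT replicates 1, 2 and F1. The 13 mitochondrially encoded subunits summed to 240066, 86749 and 69783 CPM in KO and to 63168, 63409 and 64924 CPM in WT. In 12 of the 13 all KO libraries lay above WT, against 6.60% of all genes, and 0 of the 13 passed the test (0.00528% of all genes did), with a median log2 fold change of 1.06, and 0.30 without KO replicate 1. mt-Co1, the catalytic subunit of complex IV, stood at 60264, 30783 and 25153 CPM in KO and 22399, 22842 and 22874 CPM in WT (log2 fold change 0.72, SE 0.30, edgeR adjusted p = 0.735; 0.32 without KO replicate 1). mt-Nd1, a core subunit of the membrane arm of complex I, stood at 25270, 8727 and 6599 CPM in KO and 5841, 5970 and 6152 CPM in WT (log2 fold change 1.06, SE 0.49, and 0.37 without KO replicate 1). KO replicate 2 was the next highest library in both. The 7 mitochondrially encoded genes of complex I summed to 113388, 32813 and 25730 CPM in KO and 23325, 23530 and 24130 CPM in WT, against the nuclear sums of complex I given above.

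**Figure D5:**
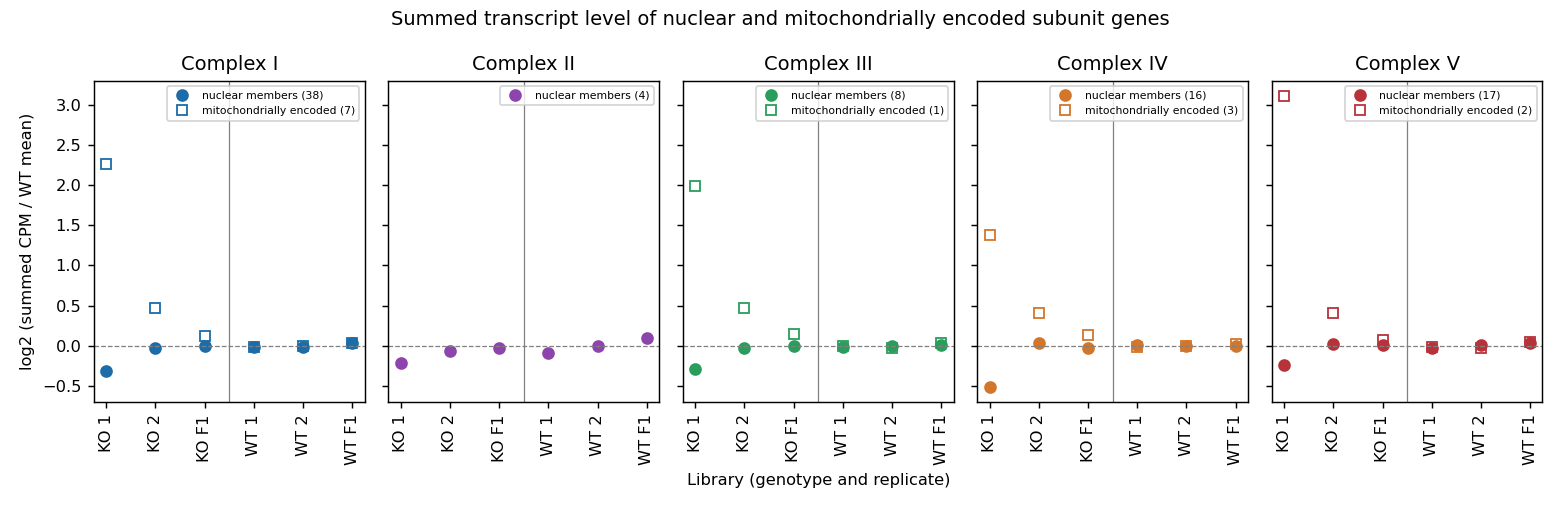
Summed CPM of nuclear (filled circles) and mitochondrially encoded (open squares) subunit genes of each complex in each library, as log2 over the WT mean, KO left of WT. In KO replicate 1 the open squares lie far above 0 and the filled circles below it, while in WT both lie near 0.

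Factors that build the complexes were read from lists of other genes. Of 16 tested assembly factors of complex I, 12 lay below 0, with a median of −0.12 (−0.03 without KO replicate 1). Ndufaf4 stood at 34.5, 22.5 and 9.98 CPM in KO and 11.2, 13.9 and 11.6 CPM in WT (log2 fold change 0.73, SE 0.33, and 0.41 without KO replicate 1), spread widely within KO. For complex IV, 16 of 21 lay below 0, with a median of −0.11 (−0.04 without KO replicate 1). Coa4 stood at 3.47, 2.68 and 2.62 CPM in KO and 4.84, 4.59 and 3.14 CPM in WT, all KO values but that of replicate 1 being below WT. The 4 factors of complex II had a median of −0.00 (−0.08 without KO replicate 1) and included Sdhaf1, needed to insert iron-sulfur clusters, with 17.5, 18.3 and 17.6 CPM in KO and 14.3, 14.3 and 15.2 CPM in WT. Its KO libraries lay close together above WT, by a log2 fold change of 0.28 (SE 0.11, edgeR adjusted p = 0.735). The 6 factors of complex III had a median of −0.09, with Uqcc2 at −0.37 (SE 0.18), which were −0.05 and −0.18 without KO replicate 1. The 4 of complex V had 0.11, with Atpaf1 at 0.19 (SE 0.12), which were 0.08 and 0.08 without it.

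Cytochrome c, the carrier between complexes III and IV, and cytochrome c1, the haem subunit of complex III that the names chosen do not reach, differed from each other in sign. Cycs stood at 151, 128 and 113 CPM in KO and 109, 112 and 113 CPM in WT (log2 fold change 0.22, SE 0.12, and 0.12 without KO replicate 1). Cyc1 stood at 78.8, 121 and 119 CPM in KO and 123, 125 and 131 CPM in WT (log2 fold change −0.26, SE 0.16, and −0.08 without KO replicate 1). Of 15 regulators of mitochondrial biogenesis 9 lay above 0, with a median of 0.07 (0.04 without KO replicate 1). Ppargc1a, the coactivator that drives mitochondrial gene programmes, stood at 105, 62.7 and 60.4 CPM in KO and 56.0, 57.4 and 61.7 CPM in WT. KO replicate 1 alone stood high, and the log2 fold change of 0.37 (SE 0.22) was 0.07 without it. The 16 citric acid cycle genes had a median of −0.00 (0.02 without KO replicate 1), and the 16 glycolysis genes one of −0.05, which was 0.06 without KO replicate 1. For the 20 carrier and import genes it was −0.05 (0.00 without that library), and for the 4 uncoupling and inhibitor genes −0.03 (−0.02 without it). None of the genes on these lists passed the test (0.00528% of all genes did).

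Levels between genes are compared by TPM, which is scaled to length, and moves with the mitochondrial share of a library. Atp5b had the highest level, 1026 TPM in KO and 1257 TPM in WT, followed in WT by Cox8a (900 TPM in KO and 1150 TPM in WT), Cox6a1 (916 TPM in KO and 1006 TPM in WT) and Cox4i1 (665 TPM in KO and 884 TPM in WT). Tissue-specific isoforms lay at the bottom. Cox4i2, the lung form that answers to oxygen, made up 0.95%, 0.44% and 0.41% of the Cox4 pair in KO replicates 1, 2 and F1 and 0.49%, 0.53% and 0.49% in WT replicates 1, 2 and F1. Cox7a1, the heart and muscle form, made up 2.58%, 1.57% and 1.26% of the pair with Cox7a2 in KO and 1.85%, 2.99% and 1.34% in WT, on between 18 and 39 counts a library. The ubiquitous isoform was thus the dominant one in every library of both genotypes. Of the c ring genes Atp5g3 had the highest level, 307 TPM in KO and 425 TPM in WT, above Atp5g2 (149 TPM in KO and 200 TPM in WT) and Atp5g1 (125 TPM in KO and 163 TPM in WT).

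Sex was the other labelled factor, with 1 female library a genotype. For the female against male contrast 0 of the 83 passed (0.0422% of all genes did), and 1 had an unadjusted p under 0.05 (4.58% of all genes), Atp5j, the F6 coupling factor, at 0.41. The point estimate was higher in females in 68 of 83 genes, against 49.9% of all genes, with a median of 0.12. KO replicate 1 is a male library, and without it 54 genes were higher in females and the median was 0.04. The genotype difference did not differ detectably between the sexes, with 0 of 83 passing the interaction test (0.0739% of all genes did) and 0 with an unadjusted p under 0.05 (7.42% of all genes).

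Promoters of genes in the group were searched for motifs of factors known to drive nuclear mitochondrial genes: NRF1 (GCGCA, any base, then GCGC), ETS factors such as GABP (CCGGAAG), estrogen-related receptors (AAGGTCA) and YY1 (AAGATGGCG), on both strands. RefSeq promoters of GRCm38.p6, 250 bases before to 50 after each start, matched 69 of the 83 genes. The NRF1 motif lay in 24.6% of the 69, against 9.8% of 12696 tested genes with a promoter and 5.2% of all 27025. ETS lay in 23.2%, against 16.9% and 9.9%, the estrogen-related receptor motif in 11.6%, against 4.2% and 5.4%, and YY1 in 11.6%, against 2.9% and 1.6%. At least 1 of the 4 motifs lay in 36 of the 69 promoters, or 52.2%. This compares with 29.6% of tested genes, and matches of different motifs overlapped in 0 of the 69. The median log2 fold changes of genes with and without a motif were −0.15 and −0.16 for NRF1, −0.21 and −0.15 for ETS, −0.23 and −0.14 for the estrogen-related receptor motif and −0.09 and −0.17 for YY1. A match describes these letters and is not evidence of binding.

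In complexes I, III, IV and V, 1 gene each was taken, that with the smallest unadjusted p among genes with 1 RefSeq promoter. All KO libraries of these 4 genes lay below WT, against 7.32% of all genes, in a choice made by small p. The 150 bases before their RefSeq starts are shown to set beside their differences. They are written 5′ to 3′ on the gene's strand, and capitals mark motif matches. Ndufa1 is chrX:37191239-37191388 (minus), Uqcrh chr4:116075071-116075220 (minus), Cox7b chrX:106015550-106015699 (plus) and Atp5k chr5:108434400-108434549 (minus), all in GRCm38.p6.
Ndufa1: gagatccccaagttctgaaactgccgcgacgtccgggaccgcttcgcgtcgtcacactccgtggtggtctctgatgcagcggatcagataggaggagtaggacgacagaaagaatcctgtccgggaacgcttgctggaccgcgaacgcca
Uqcrh: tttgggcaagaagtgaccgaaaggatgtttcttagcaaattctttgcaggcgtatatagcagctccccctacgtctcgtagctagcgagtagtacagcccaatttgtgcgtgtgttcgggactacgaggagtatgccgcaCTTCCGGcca
Cox7b: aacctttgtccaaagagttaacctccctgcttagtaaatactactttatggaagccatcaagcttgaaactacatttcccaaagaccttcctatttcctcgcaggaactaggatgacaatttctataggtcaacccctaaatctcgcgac
Atp5k: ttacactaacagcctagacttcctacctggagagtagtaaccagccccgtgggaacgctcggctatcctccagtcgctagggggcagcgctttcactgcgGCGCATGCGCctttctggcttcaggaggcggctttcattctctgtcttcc
The capitals are an ETS match in Uqcrh, on the opposite strand, and an NRF1 match in Atp5k, and the stretches of Ndufa1 and Cox7b hold none of the 4 motifs. The log2 fold changes of the 4 genes, in the order shown, were −0.36, −0.39, −0.33 and −0.63. These 4 genes were chosen by their own differences, so their low values carry no information on these letters. The whole searched promoter of Atp5k, beyond the bases shown, also held an ETS and an estrogen-related receptor match.

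Counting limits some members. A total of 24 overlap another tested gene, in each case on the opposite strand (among the genes given above Ndufa2, Ndufa4l2, Ndufs1, Uqcrb, Cox4i1, Cox5a, Atp5a1, Atp5d, Atp5f1, Atp5j and Atp5l), and 21 have near-identical pseudogenes (at least 95% identity over at least 150 aligned bases). Among those 21 the copies held more than 5% of the gene's own count only for Ndufa12 (6.36%) and Ndufb4 (5.25%).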

How the data were processed

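Per the labels' protocols, RNA was taken up with a TRIzol-type reagent and made into mRNA libraries. The submitters' processing notes name FastQC 0.11.2, Trimmomatic 0.36 and, for a role not stated, bedtools 2.26.0. An aligner, a counting tool with its strand setting and a build are not given in the sources. Per the file headers, the authors deposited for every gene and library an unnormalized count, TPM and FPKM. Within each library FPKM and TPM differed by a fixed factor. Of the gene identifiers 99.6% matched GENCODE M21 (GRCm38), and start and end were identical for 69 of the 83 genes, so the deposited coordinates are read as GRCm38.

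The deposited counts were fitted over 18956 genes kept by filterByExpr with edgeR 4.0.16 (R 4.3.3): TMM scaling, robust glmQLFit and glmQLFTest, genotype and sex as terms, 3 residual degrees of freedom, Benjamini-Hochberg adjustment over all genes, threshold 0.05. CPM values are TMM scaled, and fold changes are log2, KO minus WT. The standard error is the log2 fold change over the square root of the F statistic. Labels do not say that replicates are separate animals, so p-values measure the spread between these libraries, which may be technical. Lengths are those of GENCODE M21. Near-identical pseudogenes were found with BLAST 2.17.0.

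The 83 genes, the gene lists and the markers were chosen with earlier results of these data known, and lists are described by counts and medians without a test. Named genes were core subunits of each complex and those with the smallest unadjusted p per complex (5 in I, 3 in III, 4 in IV, 4 in V), plus up to 2 with the smallest p on other lists. Others, among them Atp5f1, Atp5l and Uqcrb, were named after their values were seen. The values of 1 gene are not reported here. The fit was checked on simulated data. These had the same dispersion for every gene and no library that stood apart, so the check does not cover a library like KO replicate 1. Alternatives were DESeq2 1.42.0 (size factors and Wald test), library totals alone, other count filters, voom with quality weights and limma-trend on the authors' TPM as log2(TPM + 1) with limma 3.58.1, no sex term, the replicate number as a block, mitochondrially encoded genes left out, and each library left out in turn. Other scalings of the sex and interaction tests, the sex test without KO replicate 1 and the overlap of genotypes without KO replicate 1 were chosen after seeing the data. Replicate numbers 1 and 2 recur in both genotypes without a label that ties them.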

Additional observations from a re-analysis of the deposited data

How the results depend on the processing

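Of the 83 genes 0 passed the test in each of the alternatives run. The median log2 fold change of the 83 stayed below 0 in each. With library totals alone it was −0.32 (complex I −0.31, II −0.23, V −0.28), where the median of all genes was itself −0.17, and with limma-trend on log2(TPM + 1) it was −0.47 (I −0.45, II −0.38, III −0.51, IV −0.48, V −0.44), where that of all genes was −0.24. Relative to all genes these were −0.15 and −0.23. With voom and quality weights the shift was smaller: the median of the 83 was −0.10, and −0.09 relative to all genes. That of complex III was −0.09 with voom, against −0.20 in the main fit. Leaving out each library gave −0.23 to −0.06, the highest without KO replicate 1. Without both KO replicate 1 and WT replicate F1 the median of the 83 was −0.03, that of complex II 0.0128 and that of complex V 0.0014. Over all genes the count of calls was 1, against 4 without a filter on low counts, 75 with DESeq2, 4 with voom, 4 with limma-trend on TPM, 3 without sex, 0 to 20 when 1 library was left out and 27 without KO replicate 1 and WT replicate F1. The interaction count was 14, and 1 with library totals alone. The sex count was 8, and 13 without KO replicate 1. The replicate block gave 0 calls over all genes and a median of −0.16 for the 83. Same-numbered libraries did not deviate together (correlations −0.04, 0.02 and 0.02), so the numbers were not read as pairs. Estimates near 0 changed sign, and so did that of Ndufb10, 0.23 in the main fit, with TPM, where the median of all genes was −0.24. With library totals Atp5a1 was −0.14 and Uqcrc1 −0.12, and with TPM Atp5a1 was −0.25, Uqcrc1 −0.25 and Ndufb10 −0.12. With voom Sdhb was 0.062 and Sdhc 0.012. Without KO replicate 1 and WT replicate F1 Sdhb was 0.14, Sdhc 0.038 and Atp5b 0.072. When 1 library was left out, Atp5a1 ranged from −0.041 (without KO replicate 2) to 0.070 (without KO replicate 1) and Uqcrc1 from −0.0005 (without either female library) to 0.099 (without KO replicate 1). Between the fits without KO replicate 2 and without KO replicate 1, Sdhb ranged from −0.14 to 0.045, Sdhc from −0.089 to 0.026 and Atp5b from −0.17 to 0.045. The cause of these changes was not tested. Leaving out either female library leaves the contrast of the males. Depth is lowest for the 4 of the 83 genes with a mean under 100 counts.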
